A study of Arabidopsis thaliana with 15 samples.

Results

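The quantity described is the change, between 1.5 h and 8 h of supply, of the difference between Arabidopsis thaliana roots given nitrate and roots given ammonium. It was computed for each probe set as nitrate minus ammonium at 8 h, less nitrate minus ammonium at 1.5 h, and is called the interaction below. It rests on 12 of the 15 arrays of the series, 3 in each of 4 groups, and on all 22746 probe sets of the Affymetrix ATH1 array. A positive interaction means that the level with nitrate, relative to ammonium, was higher at 8 h than at 1.5 h, and a negative one that it was lower. All plants were of the Columbia-0 genotype, stood at growth stage 5.10 in hydroponic culture and had spent 26 h without nitrogen. The 4 groups then had 1 mM nitrate for 1.5 h, 1 mM ammonium for 1.5 h, 1 mM nitrate for 8 h or 1 mM ammonium for 8 h. The remaining 3 arrays hold roots taken just before supply and entered the fit through the estimate of the spread. Each sample pooled the roots of at least 5 plants, and the ions that accompanied nitrate and ammonium in the medium are not given in the sources used here.

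Roots take up nitrate through high-affinity transporters of the NRT2 family and low-affinity transporters of the NRT1 family. Nitrate is reduced to ammonium before its nitrogen enters glutamine, and it is also a signal that alters transcription within minutes. Ammonium enters metabolism without that reduction, and its products also repress genes of nitrogen starvation. A difference between the ions can therefore be early and brief, or appear only once the plants have fed for hours. The interaction picks out both, and the difference at each time tells which course a gene had.

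Levels are the deposited log2 values, and an interaction is given as log2 ± its standard error. A probe set was called where limma's adjusted p (Benjamini-Hochberg over all probe sets, two-sided) was below 0.05. Replicates correlated at r of 0.9935 to 0.9978 across probe sets, and the median standard error of the interaction was 0.13 log2. With 3 arrays a group, the number of arrays limits the precision. Of 2 root markers with a named probe set, PYK10, a root beta-glucosidase, had an interaction of 0.05 ± 0.11 (adjusted p = 0.86) and EXPA7, a root hair expansin, one of -0.11 ± 0.16 (adjusted p = 0.77). EXPA7 had ion differences of 0.41 at 1.5 h, which was called, and 0.30 at 8 h, which was not. In bulk roots, fewer cells of a type and less RNA per cell cannot be told apart. Values below 5 log2 were not shown to lie above background, and no fold is given for genes with such a group.

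The interaction was called for 1023 probe sets, which is 4.5% of those tested. It was positive for 519 (2.28%) and negative for 504 (2.22%). The split moved to 64.0% positive after centring each sample on its median, from 50.7% as deposited. Without replicate 3 of nitrate at 1.5 h both counts dropped, to 343 positive and 347 negative. A change of at least 1 log2 was called for 191 probe sets (0.84%), 115 of them positive and 76 negative. The median over all probe sets was 0.01 log2, with a 5th percentile of -0.39 and a 95th of 0.40, and the median size among called probe sets was 0.65. When each of the 12 supplied arrays was left out in turn, 579 of the called probe sets, 287 positive and 292 negative, were called every time.

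The called probe sets were sorted by whether the difference between the ions was called at each time. These classes share the arrays of the interaction and are given as descriptions, with no test. Nitrate was called above ammonium in 5.61% and below it in 5.08% of all probe sets at 1.5 h, and in 5.4% and 5.28% at 8 h. A difference called only at 8 h was held by 160 probe sets with a positive interaction, where nitrate was above ammonium at 8 h, and by 203 with a negative one, where it was below. A difference called only at 1.5 h was held by 216 with a positive interaction, where nitrate was below ammonium early. It was held by 162 with a negative one, where nitrate was above early. In these classes the direction follows largely from the sign of the interaction. The ions differed the same way at both times in 113 probe sets with a larger difference at 8 h (58 positive, 55 negative interactions) and in 35 with a smaller one (16 and 19). Called differences had opposite directions at the 2 times in 73 (34 and 39), and no difference was called at either time in 61 (35 and 26).

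Which ion moved between the times was read from the change within each ion. From 1.5 h to 8 h, 5.81% of all probe sets rose and 6.05% fell with nitrate, and 5.82% rose and 5.64% fell with ammonium. Among the 519 positive interactions, 194 rose with nitrate with no called change under ammonium, 213 fell with ammonium with no called change under nitrate, and 60 did both. Among the 504 negative ones, 251 fell with nitrate alone, 154 rose with ammonium alone, and 43 fell with nitrate while they rose with ammonium. The larger of the changes was the one with nitrate in 254 of the 519 positive and in 319 of the 504 negative interactions.

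**Figure D1:**
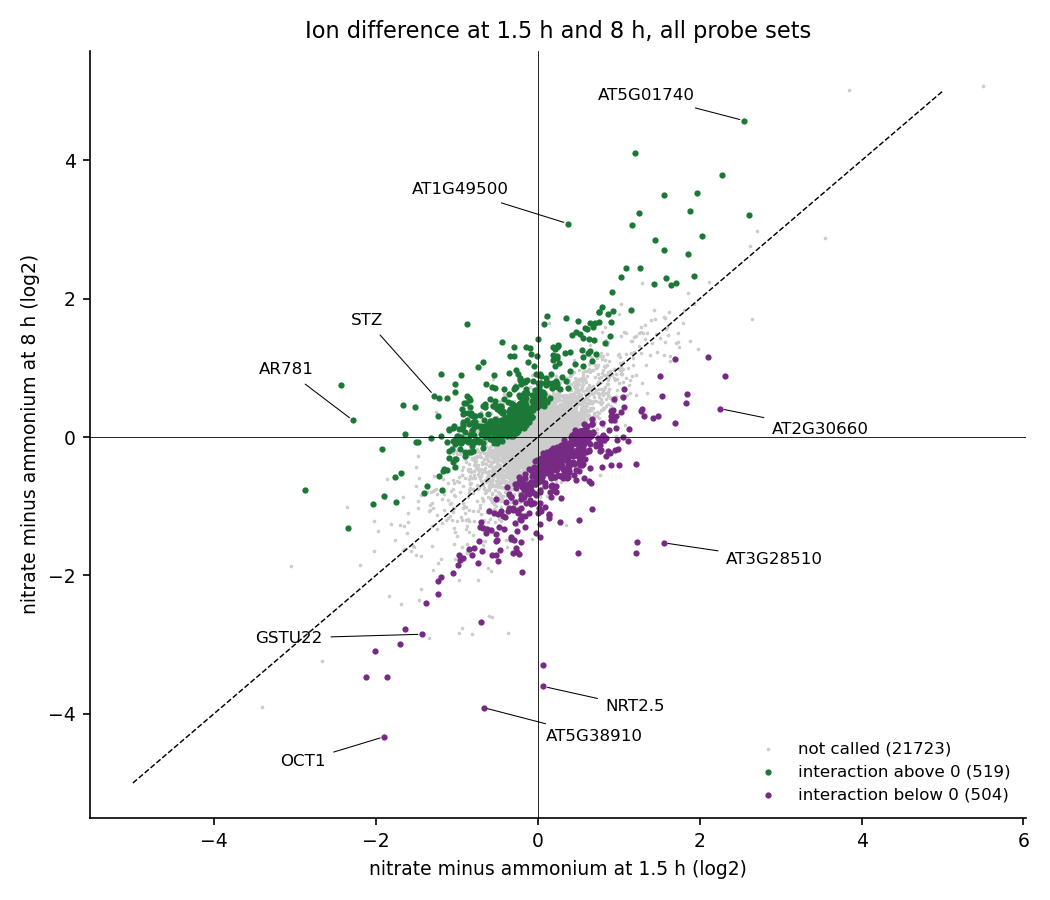
The nitrate minus ammonium difference at 8 h (vertical, log2) is plotted against that at 1.5 h (horizontal, log2) for all 22746 probe sets, and the dashed line marks equal differences. The 519 called positive interactions lie above the line and the 504 called negative ones below it, with NRT2.5 near 0 at 1.5 h and at -3.60 at 8 h.

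The largest negative interaction was that of NRT2.5, which carries nitrate into the roots of starved plants with high affinity. At 1.5 h its level was 11.04, 10.98 and 11.21 with nitrate and 11.01, 11.03 and 10.98 with ammonium. By 8 h it was 6.03, 5.22 and 5.46 with nitrate against 9.39, 9.26 and 8.88 with ammonium. The groups overlapped at 1.5 h and were far apart at 8 h, since the gene fell by 5.51 with nitrate and fell by 1.83 with ammonium. Its interaction was -3.67 ± 0.23 (adjusted p = 3.1e-07), a 12.8-fold change of the ratio between the ions. The other nitrogen transporter with a named probe set, NRT1.4, a nitrate transporter known from leaf petioles, had an interaction of 0.45 ± 0.20 (adjusted p = 0.23).

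OCT1, an organic cation transporter of the carnitine transporter family, already differed early. Its level at 1.5 h was 8.09, 7.35 and 7.74 with nitrate and 9.46, 9.73 and 9.67 with ammonium. After 8 h it read 4.79, 4.48 and 3.74 with nitrate, below the level taken as measured, and 8.51, 8.70 and 8.79 with ammonium. The nitrate samples lay below all ammonium samples at both times, and the interaction of the deposited values was -2.44 ± 0.31 (adjusted p = 0.00037). With the mean of nitrate at 8 h set to 5 log2 it was -1.77, and the size below that level is not known. AT5G38910, a germin-like protein, had levels of 7.79, 8.79 and 7.57 with nitrate and 8.95, 8.85 and 8.37 with ammonium at 1.5 h, which overlapped. The same gene read 6.67, 5.81 and 6.26 with nitrate and 10.20, 10.71 and 9.56 with ammonium at 8 h. It fell with nitrate and rose with ammonium, and its interaction was -3.24 ± 0.51 (adjusted p = 0.0018).

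GSTU22, a tau class glutathione S-transferase, an enzyme that joins glutathione to reactive compounds, was at 7.63, 7.54 and 8.10 with nitrate and 9.20, 9.27 and 9.09 with ammonium at 1.5 h. At the later time it was at 6.81, 6.85 and 6.81 with nitrate and 9.62, 9.70 and 9.70 with ammonium. The nitrate samples were the lower ones at both times and the distance between the ions grew from 1.43 to 2.85 log2, an interaction of -1.42 ± 0.15 (adjusted p = 9.1e-05). AT4G33040 and AT5G11930, small glutaredoxins with a CC-type active site, were close between the ions at 1.5 h, with differences of -0.24 and -0.02. AT4G33040 was at 6.16, 5.90 and 5.86 with nitrate and 7.81, 7.61 and 7.59 with ammonium at 8 h, and AT5G11930 at 5.68, 5.54 and 5.45 against 7.04, 7.03 and 6.78. Their interactions were -1.46 ± 0.16 (adjusted p = 0.00011) and -1.38 ± 0.13 (adjusted p = 4.3e-05). The ions did not overlap at 8 h in either gene, and at 1.5 h they overlapped in AT5G11930 only.

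Further genes were lower with nitrate, relative to ammonium, at the later time. SUFE2, an activator of plastid sulfur transfer for iron-sulfur clusters, stood at -1.64 between the ions at 1.5 h and at -2.77 at 8 h, an interaction of -1.14 ± 0.25 (adjusted p = 0.016). DTX4, a multidrug and toxin efflux carrier, was at 5.79, 5.49 and 5.48 with nitrate and 7.12, 7.09 and 6.46 with ammonium at 8 h, after overlapping levels at 1.5 h (interaction -1.15 ± 0.22, adjusted p = 0.0062). UGT73D1, a glycosyltransferase, went from a difference of -0.26 to one of -1.60, an interaction of -1.34 ± 0.23 (adjusted p = 0.0035). AT1G22160, whose levels were 8.22, 8.02 and 8.18 with nitrate and 8.17, 8.02 and 8.13 with ammonium at 1.5 h, fell with both ions but further with nitrate, to 6.17, 6.03 and 6.17 against 7.69, 7.40 and 7.61. Its interaction was -1.47 ± 0.13 (adjusted p = 1.5e-05). AT5G18840, of the sugar transporter family, was at 9.02, 9.12 and 8.91 with nitrate and 8.65, 8.90 and 8.68 with ammonium at 1.5 h, a difference that was not called (adjusted p = 0.16). At 8 h it was lower with nitrate, at 7.97, 8.24 and 7.85 against 9.22, 9.34 and 9.19. Its interaction was -1.50 ± 0.16 (adjusted p = 0.00011).

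AT1G19960 had overlapping levels at 1.5 h and was at 6.80, 6.29 and 6.24 with nitrate and 8.34, 8.43 and 7.56 with ammonium at 8 h (interaction -2.17 ± 0.48, adjusted p = 0.016). Its call was lost, at an adjusted p of 0.059, with limma's variance trend and robust estimation. AT1G17615, a protein of the TIR-NBS class of disease resistance proteins, was between 2.99 and 3.30 in the 6 arrays of 1.5 h and between 3.04 and 3.19 with nitrate at 8 h. With ammonium at 8 h it was at 4.81, 5.28 and 5.07, so that 1 of the 4 groups had a mean of at least 5 log2 (interaction -1.76 ± 0.16, adjusted p = 2.1e-05). With the low group means set to 5 log2 the interaction was -0.05. AT3G60420 was likewise above 5 log2 in all samples of ammonium at 8 h alone, at 7.23, 6.89 and 5.39. The call of its interaction of -1.98 ± 0.50 (adjusted p = 0.037) was lost without any of 9 of the 12 supplied arrays or 1 array from before supply (adjusted p up to 0.091). It was also lost with variance trend and robust estimation (adjusted p = 0.096). With low group means at 5 log2 the interaction was -1.50. Its second probe set, 251417_at, had an interaction of -0.02.

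**Figure D2:**
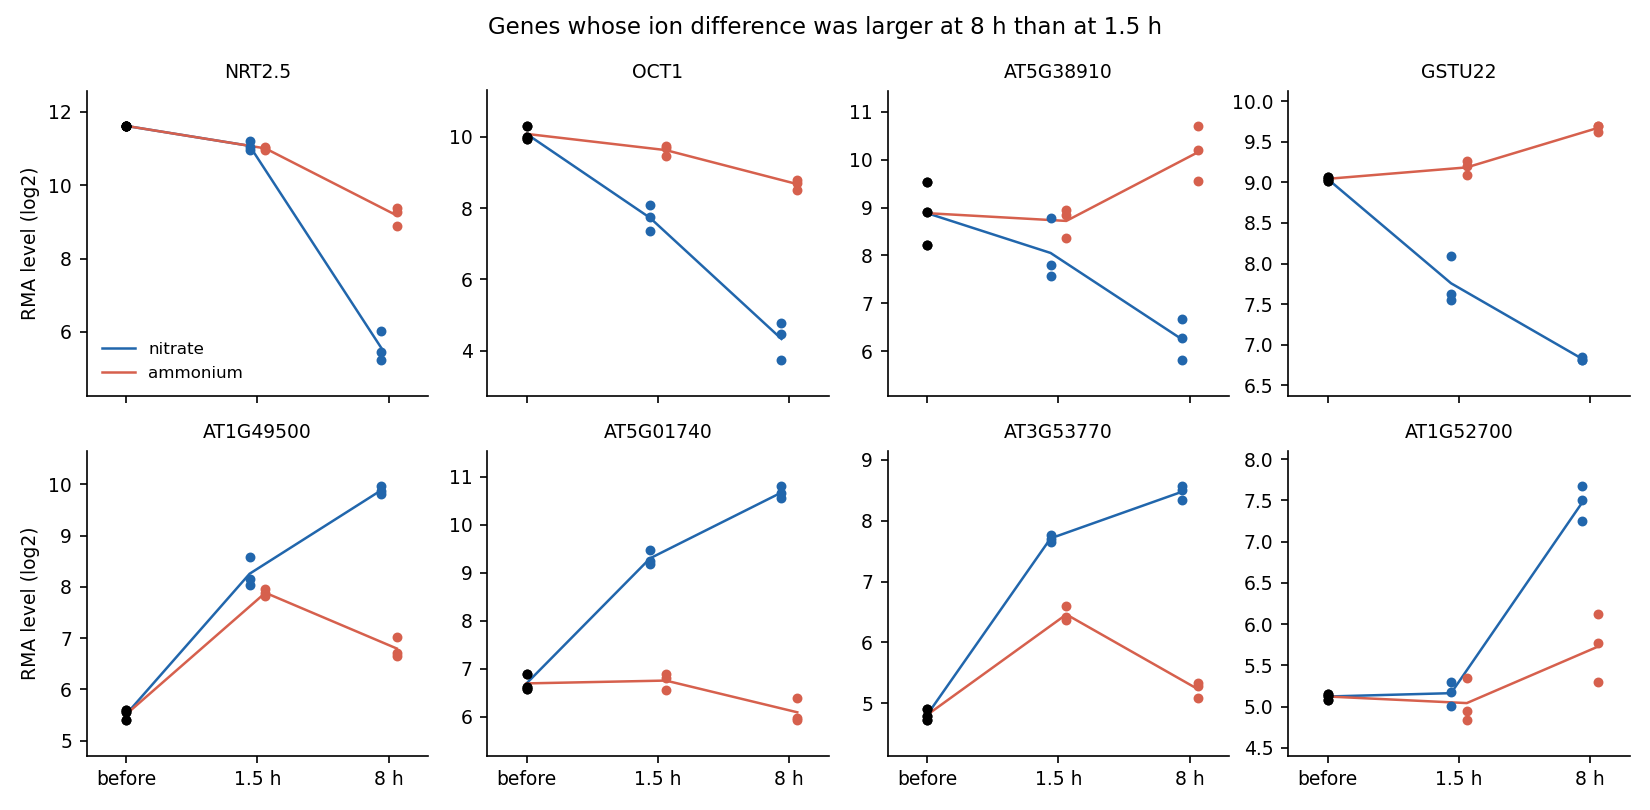
Each panel plots the log2 level of 1 gene before supply (black) and at 1.5 h and 8 h with nitrate (blue) or ammonium (red), with points for the 3 samples and lines through the group means. In the upper row nitrate lies below ammonium at 8 h, with NRT2.5 at 5.22 to 6.03 against 8.88 to 9.39, and in the lower row it lies above, with AT1G49500 between 9.81 and 9.97 against 6.65 to 7.03.

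The largest positive interaction of a gene with a name was that of AT1G49500, for which no role is given here. Its level at 1.5 h was 8.58, 8.15 and 8.04 with nitrate and 7.96, 7.81 and 7.89 with ammonium. At 8 h the nitrate samples had 9.87, 9.81 and 9.97 and the ammonium samples 6.65, 6.72 and 7.03. The samples of the ions did not overlap at either time, but the difference of 0.37 at 1.5 h was not called (adjusted p = 0.073), and that of 3.09 at 8 h was. The gene rose by 1.63 with nitrate and fell by 1.09 with ammonium, an interaction of 2.72 ± 0.18 (adjusted p = 4.5e-07) or 6.57-fold.

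AT5G01740 and AT3G53770 shared that course from an early difference that was already called. AT5G01740 was at 9.47, 9.25 and 9.19 with nitrate and 6.81, 6.90 and 6.56 with ammonium at 1.5 h, and at 10.55, 10.66 and 10.81 against 5.93, 6.40 and 5.97 at 8 h. Its interaction was 2.03 ± 0.19 (adjusted p = 2.4e-05), and its 8 h difference of 4.58 was among the widest in the plot of ion differences. AT3G53770 was at 7.66, 7.77 and 7.70 with nitrate and 6.42, 6.59 and 6.37 with ammonium at 1.5 h, and at 8.34, 8.57 and 8.51 against 5.08, 5.33 and 5.28 at 8 h. In both genes all nitrate samples lay above all ammonium samples at each time, and the level rose with nitrate while it fell with ammonium. The interaction of AT3G53770 was 1.99 ± 0.12 (adjusted p = 3.3e-07).

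Other genes rose with nitrate and rose by less, or had no called change, with ammonium. AT1G52700, an alpha/beta hydrolase, was at 5.30, 5.17 and 5.01 with nitrate and 4.83, 5.35 and 4.95 with ammonium at 1.5 h, which overlapped. Its 8 h levels were 7.68, 7.50 and 7.25 against 5.29, 6.12 and 5.77, with every nitrate sample above every ammonium sample (interaction 1.63 ± 0.25, adjusted p = 0.0013). AT5G26200, of the mitochondrial carrier family, was at 6.82, 7.73 and 6.41 with nitrate and 5.76, 5.19 and 5.32 with ammonium at 1.5 h. At 8 h the nitrate samples were at 8.89, 8.70 and 8.90 and the ammonium samples at 4.95, 5.73 and 5.29, an interaction of 1.94 ± 0.42 (adjusted p = 0.014). SDH1-2, a copy of the flavoprotein subunit of succinate dehydrogenase, went from a difference of 0.89 to one of 1.46, an interaction of 0.58 ± 0.11 (adjusted p = 0.0059). SBT4.12, a subtilisin-like protease, was at 12.38, 12.43 and 12.36 with nitrate and 11.62, 11.68 and 11.56 with ammonium at 8 h, and its difference of 0.24 at 1.5 h reached 0.77 (interaction 0.53 ± 0.11, adjusted p = 0.011). It rose with both ions, further with nitrate.

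A second course was a peak under ammonium at 1.5 h that was gone by 8 h. AR781 was at 7.98, 7.74 and 8.02 with ammonium and 5.61, 6.06 and 5.22 with nitrate at 1.5 h. At 8 h it was at 6.04, 6.43 and 6.15 with ammonium and 7.22, 6.07 and 6.08 with nitrate. All ammonium samples were above all nitrate samples early, the ions overlapped later, and replicate 1 of nitrate at 8 h stood above the other samples of that time. The interaction was 2.53 ± 0.36 (adjusted p = 0.00089), and 2.15 (adjusted p = 0.00032) without that replicate. STZ, a zinc finger repressor induced by salt, cold and oxidative stress, was at 8.84, 8.73 and 8.70 with ammonium and 7.48, 7.65 and 7.30 with nitrate at 1.5 h. Its 8 h levels were 7.17, 7.56 and 6.86 with ammonium and 8.73, 7.61 and 7.05 with nitrate, again with replicate 1 of nitrate highest. The interaction of STZ was 1.88 ± 0.42 (adjusted p = 0.016) and 1.42 (adjusted p = 0.0073) without that replicate, and its call was lost with variance trend and robust estimation (adjusted p = 0.056).

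AT1G25400 was at 8.44, 8.37 and 8.94 with ammonium and 6.80, 6.81 and 6.39 with nitrate at 1.5 h, and between 6.60 and 7.09 in all 6 samples of 8 h. Its interaction was 1.75 ± 0.23 (adjusted p = 0.00052), and the whole of the called movement was a fall of 1.64 with ammonium. WRKY53, a transcription factor of senescence and defence, was at 7.84, 7.95 and 7.86 with ammonium and 6.91, 7.18 and 6.97 with nitrate at 1.5 h. At 8 h all 6 samples lay between 7.02 and 7.36 (interaction 0.82 ± 0.15, adjusted p = 0.0059). AT2G32020, an acetyltransferase family member known as a marker of mitochondrial dysfunction, was at 7.64, 7.41 and 8.28 with ammonium and 5.83, 6.15 and 6.05 with nitrate at 1.5 h. The ions still differed at 8 h, at 6.50, 6.58 and 6.46 against 6.15, 5.90 and 5.79, but by less (interaction 1.19 ± 0.24, adjusted p = 0.0089). AT5G39580, a peroxidase, was also higher with ammonium at 1.5 h only (interaction 2.11 ± 0.47, adjusted p = 0.017), and its call was lost with variance trend and robust estimation (adjusted p = 0.058).

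Of the U-box ubiquitin ligases, enzymes that mark proteins for breakdown, 9 had a named probe set. Of these 3 were called, all with a positive interaction and all with a difference called at 1.5 h only. Over 1 probe set for each of 13355 named genes, 3.95% were called in either direction, with 2.13% positive and 1.81% negative. These shares are given beside the counts of each family and list below. The lists were chosen with earlier results of these data known, so a larger share in a list is a description and no test of it. PUB19, which acts in drought and abscisic acid responses, was at 7.22, 7.21 and 7.30 with ammonium and 6.39, 6.30 and 6.25 with nitrate at 1.5 h, and between 6.0 and 6.49 in all 6 samples of 8 h. Its interaction was 1.15 ± 0.15 (adjusted p = 0.00038). PUB23 and PUB22, which dampen immune responses, had interactions of 0.71 ± 0.11 (adjusted p = 0.0018) and 0.45 ± 0.09 (adjusted p = 0.01). PUB23 was 0.60 and PUB22 0.51 log2 higher with ammonium at 1.5 h, where the samples of the ions did not overlap. At 8 h all nitrate samples of PUB23 lay above its ammonium samples, though the difference of 0.11 was not called (adjusted p = 0.48). The median interaction of the 9 ligases was 0.11, against 0.02 over all named genes. This family and the other families below were formed by symbol after the annotation of the probe sets was seen.

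The same course was held by CML42, a calmodulin-like calcium sensor, with an interaction of 0.65 ± 0.15 (adjusted p = 0.02). At 8 h all its nitrate samples lay above all its ammonium samples, though the difference of 0.15 was not called (adjusted p = 0.45). Its call was lost without replicate 2 of nitrate at 1.5 h, without replicate 2 of ammonium at 1.5 h or without replicate 3 of nitrate at 8 h (adjusted p = 0.053 each). Of 7 named CML genes 1 was called, and 1 of 6 named WRKY genes. GRX480, a CC-type glutaredoxin of salicylic acid signalling, had differences of -1.86 at 1.5 h and -0.60 at 8 h, but its interaction of 1.26 ± 0.36 did not pass (adjusted p = 0.063). Nor did that of WRKY6, a factor of senescence and phosphate signalling, at 0.69 ± 0.21 (adjusted p = 0.072).

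A mirrored course was a level higher with nitrate than with ammonium at 1.5 h, a difference that was gone or smaller by 8 h. AT2G30660, of the crotonase family that also holds enzymes of valine breakdown, was at 8.22, 8.70 and 7.94 with nitrate and 6.02, 6.20 and 5.89 with ammonium at 1.5 h. At 8 h its levels were 7.41, 6.70 and 6.77 against 6.45, 7.11 and 6.08, and the ions overlapped. The interaction was -1.84 ± 0.34 (adjusted p = 0.0054), with a fall of the level with nitrate and no called change with ammonium. AT4G36010, of the thaumatin family of pathogenesis-related proteins, was at 9.40, 9.39 and 9.53 with nitrate and 7.80, 7.77 and 7.65 with ammonium at 1.5 h, and between 7.62 and 8.19 in all 6 samples of 8 h (interaction -1.49 ± 0.17, adjusted p = 0.00014). AT5G19700, of the multidrug and toxin efflux family, kept a part of its early difference, which was 2.32 at 1.5 h and 0.88 at 8 h (interaction -1.44 ± 0.20, adjusted p = 0.00089).

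Other genes of this course were closer between the ions. GSTU21 was 0.96 log2 higher with nitrate at 1.5 h and differed by -0.18 at 8 h (interaction -1.14 ± 0.21, adjusted p = 0.006). UGT72E2, which glucosylates the building units of lignin, was at 10.50, 10.49 and 10.58 with nitrate and 9.86, 9.92 and 9.91 with ammonium at 1.5 h. At 8 h all its samples lay between 10.20 and 10.40 (interaction -0.55 ± 0.10, adjusted p = 0.0057). Its level rose by 0.35 with ammonium (adjusted p = 0.0051) and had no called change with nitrate. LTI30, a dehydrin of cold and abscisic acid responses, was at 11.42, 11.48 and 11.66 with nitrate and 10.96, 10.88 and 11.16 with ammonium at 1.5 h. It fell with both ions, to 9.04, 9.07 and 9.23 against 9.23, 9.46 and 9.54, and the 8 h difference of -0.30 was not called (interaction -0.82 ± 0.14, adjusted p = 0.0027).

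**Figure D3:**
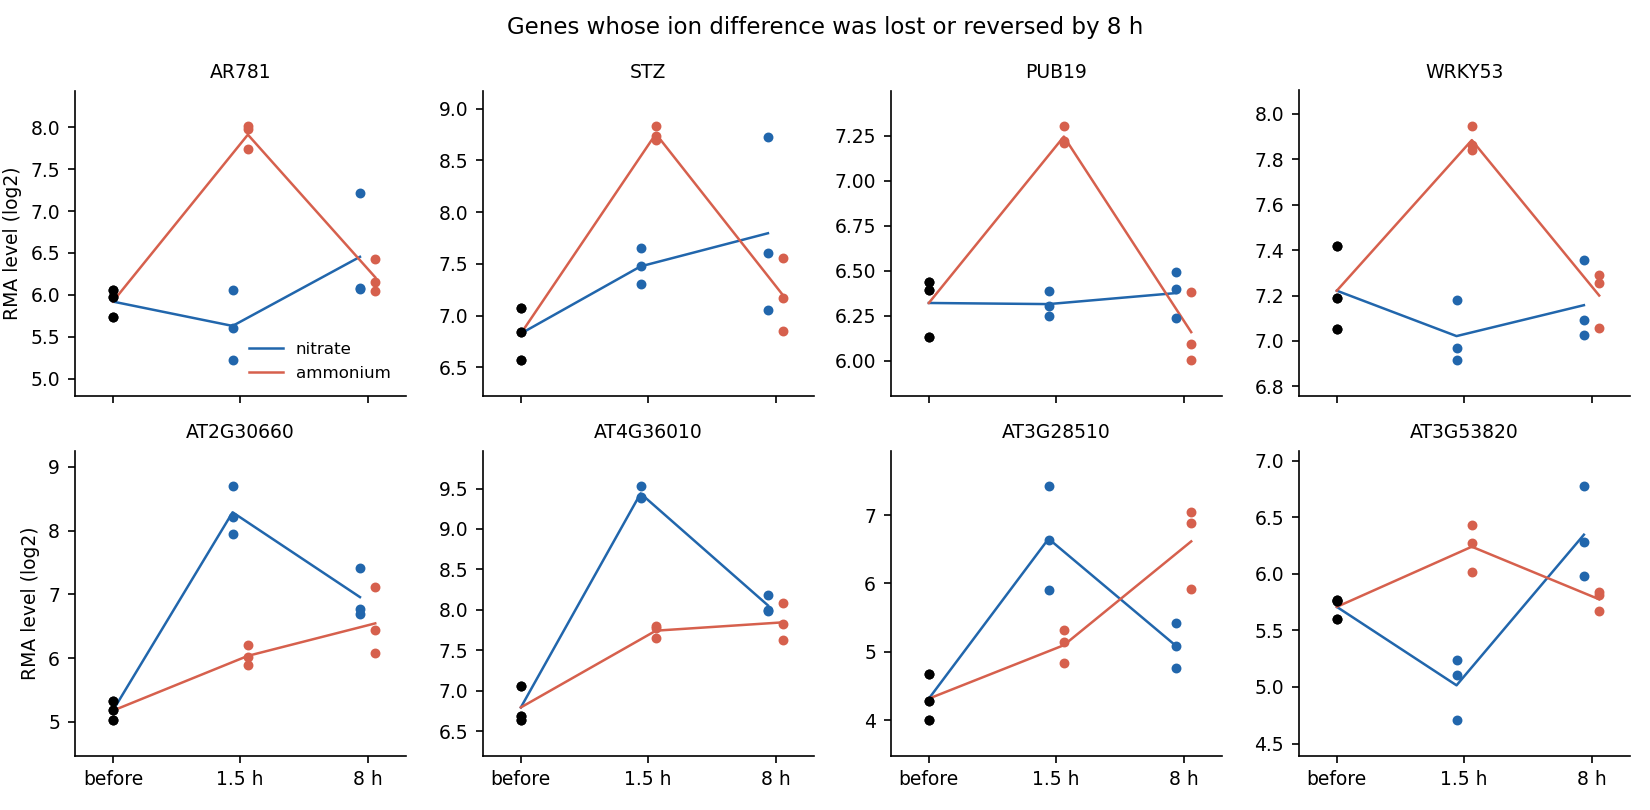
Each panel plots the log2 level of 1 gene before supply (black) and at 1.5 h and 8 h with nitrate (blue) or ammonium (red), with points for the 3 samples and lines through the group means. In AR781, STZ, PUB19 and WRKY53 ammonium lies above nitrate at 1.5 h, and in AT2G30660 and AT4G36010 nitrate lies above ammonium at that time. In AT3G28510 and AT3G53820 the order of the ions turns between the times.

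In 73 called probe sets the order of the ions was reversed with both differences called. AT3G28510, an AAA-type ATPase, was at 6.64, 7.43 and 5.90 with nitrate and 5.32, 5.14 and 4.83 with ammonium at 1.5 h. At 8 h the nitrate samples were at 5.42, 5.08 and 4.77 and the ammonium samples at 6.88, 7.05 and 5.92. The ions did not overlap at either time, and the interaction was -3.09 ± 0.47 (adjusted p = 0.0015). AT5G49870, of the jacalin lectin family, was 1.21 log2 higher with nitrate at 1.5 h and differed by -0.39 at 8 h, an interaction of -1.60 ± 0.14 (adjusted p = 1.7e-05). HSP23.5, a small heat shock protein of mitochondria, was at 6.93, 6.37 and 6.47 with nitrate and 5.92, 5.75 and 5.72 with ammonium at 1.5 h. Its 8 h levels were 6.05, 5.78 and 5.83 against 6.28, 6.27 and 6.42, an interaction of -1.22 ± 0.17 (adjusted p = 0.00083).

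The reverse turn, from ammonium higher to nitrate higher, was held by AT1G07690 and AT3G53820. AT1G07690 was at 8.65, 8.55 and 8.76 with nitrate and 9.64, 9.74 and 9.65 with ammonium at 1.5 h, and at 9.19, 9.26 and 9.63 against 8.84, 8.46 and 8.47 at 8 h. It rose with nitrate and fell with ammonium (interaction 1.79 ± 0.17, adjusted p = 2.9e-05). AT3G53820, a zinc finger protein, was at 5.10, 5.23 and 4.70 with nitrate and 6.43, 6.01 and 6.27 with ammonium at 1.5 h, and at 6.28, 5.98 and 6.78 against 5.67, 5.82 and 5.84 at 8 h. The ions were again apart at both times (interaction 1.80 ± 0.24, adjusted p = 0.00055).

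Genes of cell wall enzymes were among the turns to nitrate. XTH genes encode enzymes that cut and rejoin xyloglucan, the hemicellulose that tethers cellulose in growing walls, and 3 of 9 named members were called, all positive, with a median of 0.31. XTH18, known from growing root cells, was at 10.10, 9.79 and 10.06 with nitrate and 10.49, 10.45 and 10.38 with ammonium at 1.5 h. At 8 h it was at 10.30, 10.01 and 10.24 against 9.79, 9.85 and 9.79, so the order turned with no overlap (interaction 0.83 ± 0.13, adjusted p = 0.0014). XTH16 turned likewise, from -0.33 to 0.37 (interaction 0.70 ± 0.12, adjusted p = 0.003). XTH33 had an interaction of 0.57 ± 0.15 (adjusted p = 0.038), which was lost without any 1 of 8 of the 12 supplied arrays (adjusted p = 0.065 to 0.094). BGLU16, a beta-glucosidase, turned from -0.45 to 0.23 (interaction 0.68 ± 0.10, adjusted p = 0.0009) and was the 1 called of 20 named members of its family, or 5%.

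Among 5 named HHO genes, MYB-related transcription factors of a group with known repressors of nitrate uptake genes, 3 were called and their directions differed. HHO3 was at 8.65, 8.71 and 8.54 with nitrate and 8.53, 8.66 and 8.87 with ammonium at 1.5 h, and at 8.84, 8.65 and 8.68 against 7.78, 8.24 and 7.74 at 8 h. The level fell with ammonium and had no called change with nitrate, an interaction of 0.86 ± 0.16 (adjusted p = 0.0068). HHO2 had an interaction of 0.58 ± 0.15 (adjusted p = 0.034), which was lost without any 1 of 9 of the 12 supplied arrays (adjusted p = 0.058 to 0.083). HHO5 was below ammonium at both times and by more at 8 h, at 6.19, 6.26 and 6.13 with nitrate against 7.71, 7.56 and 7.80 (interaction -0.77 ± 0.14, adjusted p = 0.0037). HHO1 differed by 5.50 at 1.5 h and 5.08 at 8 h, and its interaction of -0.42 ± 0.15 did not pass (adjusted p = 0.13). HHO6 had -0.19 ± 0.13 (adjusted p = 0.48).

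Of 17 named CC-type glutaredoxins 4 were called, 2 in each direction, with a median of 0.27. Besides AT4G33040 and AT5G11930 below 0, these were ROXY2 with 0.72 ± 0.19 (adjusted p = 0.048, lost without any 1 of 11 of the 15 arrays, adjusted p = 0.057 to 0.12) and AT2G30540 with 0.76 ± 0.15 (adjusted p = 0.0077), whose levels were below 5 log2 in all 12 samples. Of 11 named tau class glutathione S-transferases 3 were called, all negative, with a median of -0.03. The third, GSTU20, had -0.57 ± 0.14 (adjusted p = 0.024), which was lost without replicate 3 of nitrate at 1.5 h, replicate 3 of ammonium at 1.5 h, or replicate 2 or 3 of nitrate at 8 h (adjusted p = 0.054 to 0.068). The 3 called transferases had different courses. Their ion difference was called at both times in GSTU22, at 1.5 h only in GSTU21 and at 8 h only in GSTU20. The 8 that were not called had interactions between -0.37 and 0.57.

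Of 9 named genes of mitochondrial dysfunction and oxidative stress 4 were called, STZ and AT2G32020 above 0 and HSP23.5 and DTX4 below. The mean deviation of the group was 0.46, 0.33 and 0.60 with ammonium at 1.5 h and 0.15, 0.22 and 0.10 with ammonium at 8 h. With nitrate it was between -0.32 and -0.16 at 1.5 h and between -0.49 and -0.19 at 8 h. In this mean all samples of ammonium were above all samples of nitrate at each time. Single members differed, as HSP23.5 was higher with nitrate at 1.5 h (0.79). UGT genes, which attach sugars to hormones and secondary metabolites, had 5 of 47 named members called, 1 positive and 4 negative, with a median of 0.04. The negative ones were UGT73D1, UGT87A2 (-0.81 ± 0.14, adjusted p = 0.0037), UGT72E2 and UGT71C1 (-0.35 ± 0.09, adjusted p = 0.03), and the positive one was UGT71B5 (0.54 ± 0.14, adjusted p = 0.035). The call of UGT71C1 was lost without any 1 of 8 arrays (adjusted p = 0.05 to 0.074) and after median centring (adjusted p = 0.083). That of UGT71B5 was lost without any 1 of 7 arrays (adjusted p = 0.065 to 0.089) and after a second quantile normalization (adjusted p = 0.071).

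**Figure D4:**
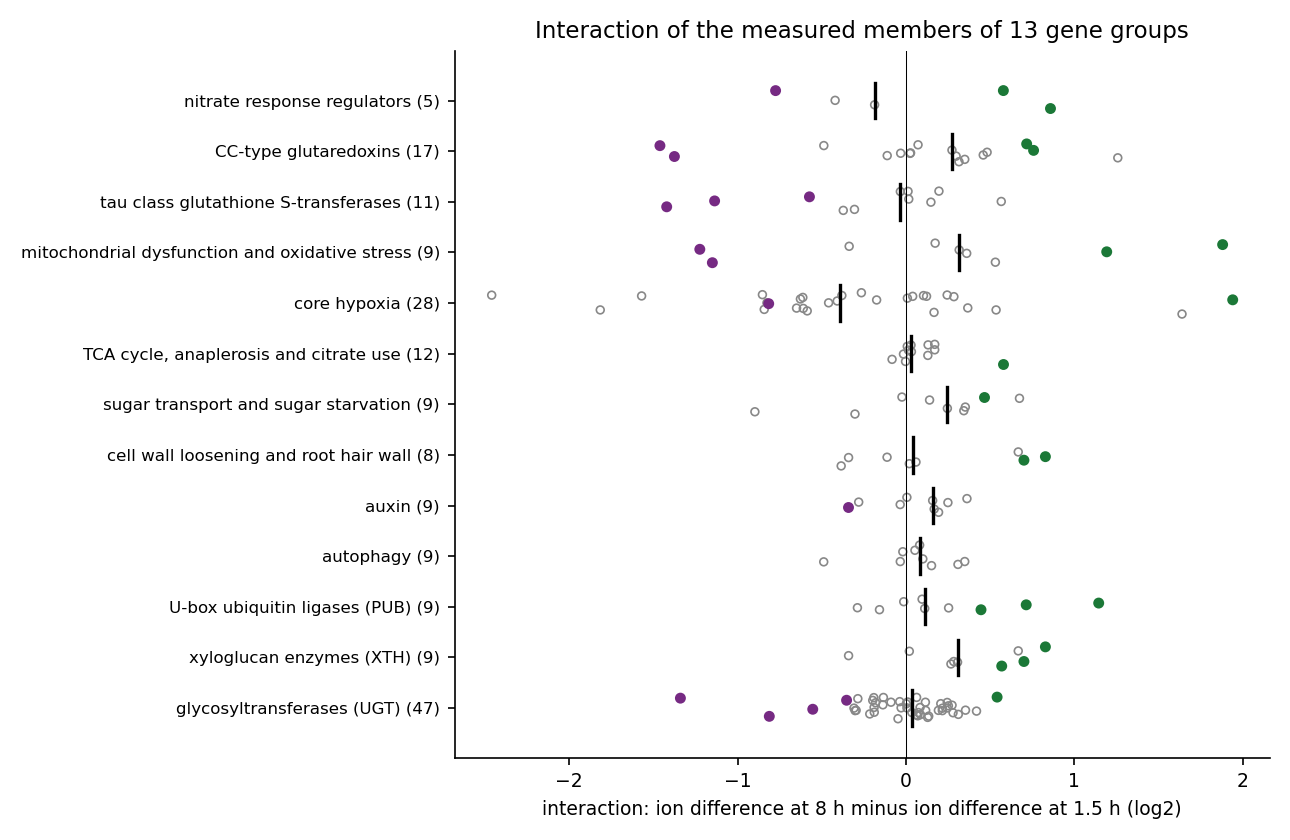
Each point is the interaction (horizontal, log2) of 1 named gene in 13 groups of genes, filled where called and open where not, with a black bar at the group's median and the number of genes in brackets. The 3 called PUB and 3 called XTH genes lie above 0 and the 3 called tau class transferases below, while called glutaredoxins and mitochondrial stress genes lie on both sides.

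Of 28 named genes of the core hypoxia response, which root cells mount when oxygen is short, 2 were called, 1 in each direction. That is 7.14%, beside 3.95% over all named genes, and the median interaction of the list was -0.39. The uncalled 26 had interactions between -2.46 and 1.64, and their standard errors ran from 0.13 to 1.57, against a median of 0.13 over all probe sets. The mean deviation of the list was 0.09, 0.55 and -0.95 with nitrate and 0.70, -0.07 and 0.53 with ammonium at 1.5 h. At 8 h it was 0.11, -1.0 and -0.72 with nitrate and -0.34, 0.55 and 0.55 with ammonium. The called members were AT5G26200 and AT4G17670, a zinc finger protein of the FLZ type, and the part of the list's spread in their interactions was not tested. AT4G17670 had -0.81 ± 0.21 (adjusted p = 0.039), which was lost without any 1 of 8 of the 12 supplied arrays or 1 array from before supply (adjusted p = 0.054 to 0.097).

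**Figure D5:**
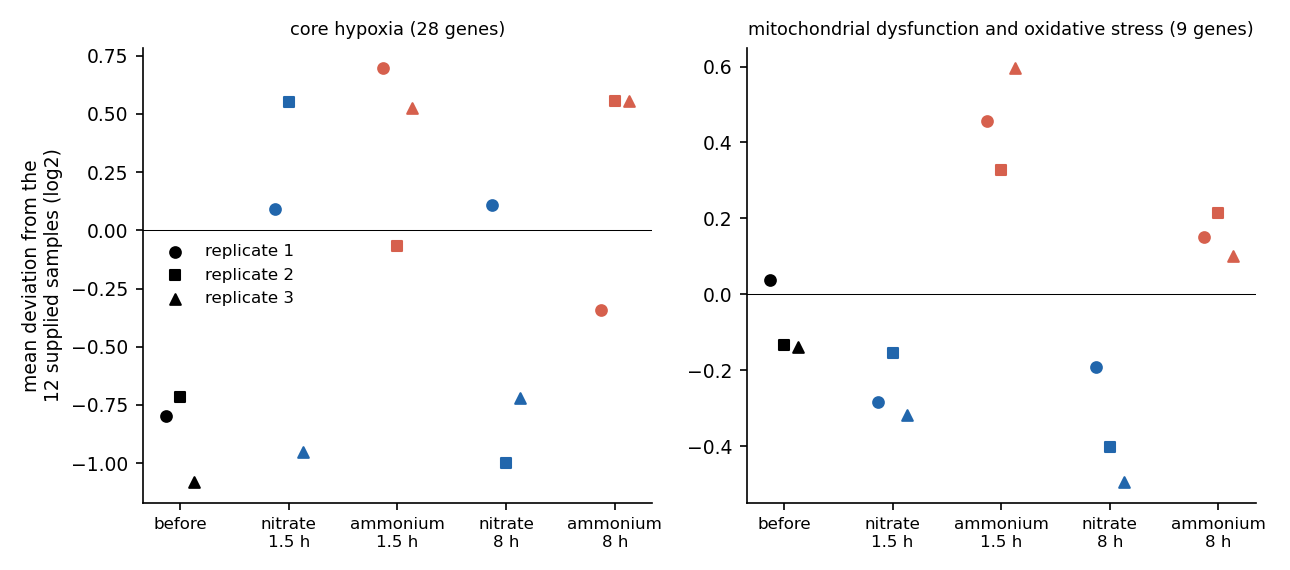
The mean deviation of 28 core hypoxia genes and of 9 genes of mitochondrial dysfunction and oxidative stress from their mean over the 12 supplied samples (vertical, log2) is plotted for each of the 15 samples, with replicates as circle, square and triangle. The mean of the hypoxia genes ranges from -0.95 to 0.55 within nitrate at 1.5 h, while the mean of the mitochondrial genes is higher with ammonium than with nitrate at both times.

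Other groups of the nitrogen response had few named probe sets. GAT1_2.1, a glutamine amidotransferase-like protein repressed by nitrogen, was the 1 named gene of nitrogen assimilation, with differences of -3.05 at 1.5 h and -1.87 at 8 h and an interaction of 1.18 ± 0.39 (adjusted p = 0.11). None of 3 named genes of the pentose phosphate pathway was called, with a median interaction of 0.005 beside median ion differences of 1.03 at each time. Of 12 named genes of the tricarboxylic acid cycle SDH1-2 was called, and of 9 auxin genes WES1, which conjugates auxin to amino acids (-0.34 ± 0.09, adjusted p = 0.038, lost without any 1 of 10 of the 12 supplied arrays, adjusted p = 0.056 to 0.091, and after median centring, adjusted p = 0.092). Of 3 clock genes GI was called (-0.45 ± 0.11, adjusted p = 0.031, lost without any 1 of 8 supplied arrays, adjusted p = 0.052 to 0.083). Of 5 genes of iron deficiency F6'H1, of coumarin synthesis, was called (-0.45 ± 0.11, adjusted p = 0.03, lost without any 1 of 8 supplied arrays, adjusted p = 0.05 to 0.074, and after median centring, adjusted p = 0.053).

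Autophagy had 0 of 9 named genes called, polyamine synthesis 0 of 3, cytokinin 0 of 2, and ethylene and jasmonate 0 of 1 each. The families CYP, TBL and TET had 0 called of 26, 22 and 15. SWEET14, a sugar exporter, fell with both ions and by more with nitrate, but its interaction of -0.90 ± 0.25 did not pass (adjusted p = 0.054). Of 14 named SWEET genes SWEET10 and SWEET9 were called, with 0.47 and 0.52, but all their samples lay below 5 log2. Either call was lost without most single arrays (12 of 12 supplied arrays and 8 of 12, adjusted p up to 0.11). Both were also lost after a second quantile normalization (adjusted p = 0.14 for SWEET10 and 0.097 for SWEET9). EXPA16, an expansin, was called with 0.76 ± 0.14 (adjusted p = 0.0064) and also lay below 5 log2 in all samples.

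PDF2.1, of the plant defensin family, was below 5 log2 in the 6 samples of 1.5 h and at 7.31, 7.27 and 7.34 with nitrate and 8.00, 8.70 and 7.81 with ammonium at 8 h. Its interaction of -1.03 ± 0.24 (adjusted p = 0.025) was lost without any 1 of 4 supplied arrays (replicates 1 and 2 of nitrate at 1.5 h, replicate 1 of ammonium at 1.5 h and replicate 2 of nitrate at 8 h, adjusted p = 0.058 to 0.064), and was -0.86 with low group means at 5 log2. RALFL32, a small signalling peptide, had -0.32 ± 0.09 (adjusted p = 0.044), lost without any 1 of 11 supplied arrays (adjusted p up to 0.11). It was also lost after median centring (adjusted p = 0.099), after a second quantile normalization (0.072) and with probe sets of 1 listed gene (0.051). GH9C3, a cellulase-like enzyme, had -0.56 ± 0.14 (adjusted p = 0.038), lost without any 1 of 8 supplied arrays (adjusted p up to 0.094). Its call was also lost after median centring (adjusted p = 0.076) and after a second quantile normalization (0.071).

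In 61 called probe sets no ion difference was called at either time. Those named from them were GI, given above, AT3G16350, a MYB-related protein, with 0.92 ± 0.24 (adjusted p = 0.043) and AT4G26600 with -0.78 ± 0.21 (adjusted p = 0.049). The calls of the latter pair were lost without most single arrays, 9 and 11 of the 12 supplied (adjusted p up to 0.11 and 0.12). The lack of a called difference does not mean equal levels. AT3G16350 had differences of -0.50 at 1.5 h and 0.41 at 8 h, and the ions did not overlap at either time. In GI and AT4G26600 all nitrate samples lay below all ammonium samples at 8 h. AT4G27654 had an interaction of 2.5 ± 0.66 (adjusted p = 0.042) and was at 6.55, 4.93 and 3.78 with nitrate at 8 h, while the other 9 samples were below 5 log2. That call was lost without any 1 of 9 supplied arrays (adjusted p up to 0.096). It was also lost after a second quantile normalization (adjusted p = 0.054), with the 12 supplied samples only (0.058) and with variance trend and robust estimation (0.11). The interaction was 0.09 with low group means set to 5 log2, and 1.77 without replicate 1 of nitrate at 8 h (adjusted p = 0.028).

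Probe sets with no gene listed in the annotation used here held some of the largest interactions. The probe set 248970_at was at 11.23, 11.32 and 11.35 with nitrate and 11.22, 11.32 and 11.15 with ammonium at 1.5 h. At 8 h it was at 8.24, 8.10 and 8.13 with nitrate and 11.53, 11.42 and 11.40 with ammonium. It fell by 3.14 with nitrate and had no called change with ammonium, an interaction of -3.36 ± 0.10 (adjusted p = 3.1e-11). The probe set 247591_at turned from 10.77, 10.54 and 10.99 with nitrate against 9.50, 9.69 and 9.44 with ammonium to 7.53, 7.66 and 7.58 against 9.03, 9.08 and 9.20, an interaction of -2.74 ± 0.14 (adjusted p = 3.4e-08).

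Of those with a positive interaction, 258629_at was at 7.62, 7.43 and 7.86 with nitrate and 6.02, 6.46 and 6.80 with ammonium at 1.5 h. Its levels at 8 h were 9.91, 10.14 and 10.10 against 5.87, 5.89 and 6.05 (interaction 2.91 ± 0.22, adjusted p = 3.7e-06). The probe set 261892_at, highest with ammonium at 1.5 h at 7.67, 7.02 and 7.67 against 4.89, 5.27 and 4.91, had 5.73, 5.95 and 5.65 with ammonium and 7.55, 6.17 and 5.85 with nitrate at 8 h. Its interaction was 3.17 ± 0.44 (adjusted p = 0.00071), and 2.66 (adjusted p = 8.4e-05) without replicate 1 of nitrate at 8 h, which was its highest sample of that time.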

How the data were processed

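Roots of 15 samples were measured on Affymetrix ATH1 arrays. The authors deposited log2 values per sample and probe set, made with RMA as far as the submitters' processing notes name it (RMA and limma, with no version or role). The scale was inferred from their range of 2.45 to 13.96, and scan files were not used here, so the background step was not examined.

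The deposited values entered the analysis unaltered. The annotation table listed 1 gene for 13513 probe sets, several for 503 and none for 8730, and 13436 matched the RefSeq table (TAIR10.1), which gave symbols. No coordinates or sequences were used. A gene with several probe sets was counted by the one with the highest mean.

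The model, in limma 3.58.1 (R 4.3.3), had 5 group means over 15 samples (residual degrees of freedom 10, prior 5.11), without a replicate block, and tables were made in Python 3.11.15. The fit was tested on simulated data. The classes, 27 gene lists (483 entries, 154 of them measured, 2 lists with none) and the genes named were chosen with earlier results of these data known, and 44 symbol families of at least 5 genes were formed after the annotation was seen. Named were the 12 largest called interactions in each direction, 2 per class, up to 3 called members per list or family with the smallest adjusted p, and 2 unlisted probe sets in each direction. Other genes mentioned were chosen after their values were seen. Alternatives were another normalization, centring, a level filter, fewer samples, variance trend with robust estimation, array weights, the replicate block and leaving out each array.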

Additional observations from a re-analysis of the deposited data

Results flagged for a closer look

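Every named interaction is a difference between the times in the effect of the ion, found by limma's interaction test, and each is listed here by its log2 value. Explanations were not weighed. In the lists below the ions count as apart at a time where their difference was called, and as not apart otherwise. The values of AT4G27654, OCT1, AT3G60420, AT1G17615 and PDF2.1 involve groups below 5 log2, and those of AT2G30540, SWEET9, SWEET10 and EXPA16 lie below it throughout, so their sizes are not settled.

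Positive values with the ions apart at 8 h only or by more at 8 h were 2.72 in AT1G49500, 2.5 in AT4G27654, 2.03 in AT5G01740, 1.99 in AT3G53770, 1.94 in AT5G26200, 1.63 in AT1G52700, 0.86 in HHO3, 0.76 in EXPA16, 0.58 in HHO2, 0.58 in SDH1-2, 0.57 in XTH33, 0.53 in SBT4.12 and 2.91 in 258629_at. Positive values with a difference lost or smaller by 8 h were 2.53 in AR781, 2.11 in AT5G39580, 1.88 in STZ, 1.75 in AT1G25400, 1.19 in AT2G32020, 1.15 in PUB19, 0.82 in WRKY53, 0.76 in AT2G30540, 0.71 in PUB23, 0.65 in CML42, 0.52 in SWEET9, 0.47 in SWEET10, 0.45 in PUB22 and 3.17 in 261892_at. A positive value with the order of the ions reversed was found in AT3G53820 (1.80), AT1G07690 (1.79), XTH18 (0.83), XTH16 (0.70) and BGLU16 (0.68), and one with no called difference at either time in AT3G16350 (0.92).

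Negative values with the ions apart at 8 h only or by more at 8 h were -3.67 in NRT2.5, -3.24 in AT5G38910, -2.44 in OCT1, -2.17 in AT1G19960, -1.98 in AT3G60420, -1.76 in AT1G17615, -1.50 in AT5G18840, -1.47 in AT1G22160, -1.46 in AT4G33040, -1.42 in GSTU22, -1.38 in AT5G11930, -1.34 in UGT73D1, -1.15 in DTX4, -1.14 in SUFE2, -1.03 in PDF2.1, -0.81 in AT4G17670, -0.81 in UGT87A2, -0.77 in HHO5, -0.57 in GSTU20, -0.45 in F6'H1, -0.34 in WES1, -0.32 in RALFL32 and -3.36 in 248970_at. Negative values with a difference lost or smaller by 8 h were -1.84 in AT2G30660, -1.49 in AT4G36010, -1.44 in AT5G19700, -1.14 in GSTU21, -0.82 in LTI30, -0.56 in GH9C3 and -0.55 in UGT72E2. The order of the ions was reversed in AT3G28510 (-3.09), AT5G49870 (-1.60), HSP23.5 (-1.22) and 247591_at (-2.74), and no difference was called at either time in AT4G26600 (-0.78) and GI (-0.45).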

How the results depend on the processing

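No named interaction changed its sign under any of the 23 alternatives, and 49 of the 69 kept their call in all of those that could test them. The count of 1023 calls (519 positive, 504 negative) was 994 after a second quantile normalization, 1051 after median centring, 1138 with a mean of at least 5 log2, 1258 with the 12 supplied samples only and 1235 with variance trend and robust estimation. With array weights it was 1607 (834 and 773), where replicates 3 and 1 from before supply had weights of 7.64 and 0.252. With probe sets of 1 listed gene, of which fewer were tested, it was 474 (252 and 222), with 52 and 40 of at least 1 log2. Leaving out 1 array gave 690 to 1440 calls, 343 to 740 of them positive and 347 to 700 negative, with 94 to 132 and 72 to 91 of at least 1 log2. The lowest counts, 343 positive and 347 negative, were both without replicate 3 of nitrate at 1.5 h. The highest total was without replicate 1 from before supply, and the cause was not tested. With the replicate block the count was 1180, and it ended the calls of AT4G17670 (adjusted p = 0.053), AT3G16350 (0.05) and SWEET9 (0.056) among the named genes. No source gives same-numbered samples a shared origin. Among the 12 supplied samples, deviations of same-numbered samples correlated at -0.16 to 0.37. The correlation was over 0.1 in 8 of 18 such pairs, against 6 of 36 pairs of other numbers. Replicate 1 from before supply correlated with replicate 1 of the supplied groups at 0.17 to 0.30. The same range was -0.04 to 0.10 for replicate 2 and -0.01 to 0.19 for replicate 3. Same-numbered pairs thus passed 0.1 more often, though not throughout, and a shared origin was not tested. The main fit left the replicate block out, and the block is given as an alternative only. Setting group means under 5 log2 to 5, an alternative chosen after seeing the data, left 0.09 of 2.5 in AT4G27654, -1.77 of -2.44 in OCT1, -1.50 of -1.98 in AT3G60420, -0.05 of -1.76 in AT1G17615 and -0.86 of -1.03 in PDF2.1. Detection above background was not measured, which limits values below 5 log2.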
